A study of Homo sapiens with 6 samples.

Results

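Chromatin from K562, a human cell line of chronic myeloid leukemia, gave 1100 wide PLAG1-S binding regions that had no USF2 peak beside them. They were selected on 3 measured values: a clone 4 PLAG1-S peak of 700 bp or more, an overlap of at least 1 bp with a clone 5 PLAG1-S peak, and no USF2 peak of either clone within 100 bp of its edges. The rule was applied to chromosomes 1 to 22 and X, where the clone 4 list held 37331 PLAG1-S peaks, so the regions made up 2.95% of that list. Of the clone 4 peaks, 21330 were reproducible, meaning that they overlapped a clone 5 peak, and 2662 of these were 700 bp or wider. The regions were 41.3% of the reproducible wide peaks, and the other 1562 had a USF2 peak within 100 bp.

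The study prepared chromatin from 2 clones of K562, #4 and #5, each of which carried transgenes for FLAG-tagged PLAG1-S and for USF2 together. Anti-FLAG and anti-USF2 antibodies gave a library per factor and clone, and the inputs of the clones were merged as the shared control of all 4 peak lists. Each clone is a single line with forced expression of both factors, and no cells without the transgenes were among the samples. Peak lists carry no expression values, so the identity of the cells was not checked against marker genes.

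PLAG1 is a zinc-finger transcription factor first described through its rearrangement in salivary gland pleomorphic adenomas. It recognises a bipartite element made of a G-rich core and a nearby cluster of G, and PLAG1-S is a short isoform that starts at an internal methionine and lacks the first zinc fingers. USF2 is a basic helix-loop-helix leucine zipper factor that binds the E-box CACGTG, mostly near transcription start sites (TSSs).

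The promoters shown here are those of the strongest wide PLAG1-S-only peaks whose RefSeq promoter window lay inside the peak and outside every annotated coding gene span, and they are given because they hold the G-rich element without an E-box. Each is the 250 bases before a TSS, 5′ to 3′ on the strand of the gene (RefSeq, GRCh38.p14), and capitals mark every match on either strand to GAGGC or GGGGC, then 6 to 8 of any base, then GGG. The PRXL2B promoter lies at chr1:2586273-2586522 on the plus strand, the ADPGK promoter at chr15:72783759-72784008 on the minus strand and the VEZF1 promoter at chr17:57988255-57988504 on the minus strand.
PRXL2B: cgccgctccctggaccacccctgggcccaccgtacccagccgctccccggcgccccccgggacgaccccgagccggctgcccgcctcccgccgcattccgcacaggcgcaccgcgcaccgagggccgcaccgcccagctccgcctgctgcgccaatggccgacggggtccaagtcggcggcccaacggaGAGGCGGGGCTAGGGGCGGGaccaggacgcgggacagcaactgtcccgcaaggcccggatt
ADPGK: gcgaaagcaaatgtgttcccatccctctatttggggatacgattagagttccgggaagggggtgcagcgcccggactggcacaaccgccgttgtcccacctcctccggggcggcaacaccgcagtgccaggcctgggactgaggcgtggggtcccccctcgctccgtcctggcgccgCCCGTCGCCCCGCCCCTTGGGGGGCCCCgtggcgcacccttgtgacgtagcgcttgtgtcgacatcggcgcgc
VEZF1: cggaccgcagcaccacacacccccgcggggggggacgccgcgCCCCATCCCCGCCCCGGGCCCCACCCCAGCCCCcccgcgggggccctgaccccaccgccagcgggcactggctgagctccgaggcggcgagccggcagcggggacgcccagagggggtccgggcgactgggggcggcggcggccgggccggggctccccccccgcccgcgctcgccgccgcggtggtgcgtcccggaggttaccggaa

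For contrast, the promoters of 2 wide PLAG1-S peaks that did have USF2 are given, RAD9A at chr11:67391736-67391985 and MCOLN1 at chr19:7522374-7522623, both on the plus strand and chosen after their values were seen. Here capitals mark the E-box CACGTG.
RAD9A: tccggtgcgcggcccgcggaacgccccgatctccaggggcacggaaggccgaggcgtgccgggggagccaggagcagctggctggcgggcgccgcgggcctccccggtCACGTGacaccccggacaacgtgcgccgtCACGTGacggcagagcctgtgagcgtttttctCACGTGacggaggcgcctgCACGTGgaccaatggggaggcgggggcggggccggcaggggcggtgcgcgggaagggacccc
MCOLN1: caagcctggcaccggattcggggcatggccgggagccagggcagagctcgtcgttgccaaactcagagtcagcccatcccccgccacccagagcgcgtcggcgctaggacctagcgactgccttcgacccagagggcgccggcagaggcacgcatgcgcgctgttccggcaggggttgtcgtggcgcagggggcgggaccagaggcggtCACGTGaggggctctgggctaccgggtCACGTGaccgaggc

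The 3 promoters of the wide PLAG1-S-only peaks were printed as promoters without CACGTG, so its absence from their 300-base windows is no result. The G-rich element was also found in both promoters with USF2.

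The wide PLAG1-S-only peaks were of moderate enrichment. Their clone 4 width ran from 700 to 2552 bp with a median of 848 bp, and 261 of them, or 23.7%, reached 1 kb. The fold enrichment at the summit is the authors' ratio of fragments to the local input background, read here as having 1 added to each. Its median was 7.82 in clone 4 and 7.10 in clone 5. Between the quartiles the fold ran from 6.02 to 10.4 in clone 4 and from 5.67 to 9.57 in clone 5. A median summit carried 40 fragments in clone 4 over a local background of 4.29, and 35 fragments in clone 5 over a background of 3.74, which sets the counting precision of a single peak. The reproducible PLAG1-S peaks below 700 bp without USF2 (narrow PLAG1-S-only peaks, 15079) had a median fold of 5.69 in clone 4, and the wide peaks with USF2 (wide co-bound peaks) had 16.3. These widths and folds belong to the contrast that chose the peaks and are given as a description. At the width limit, the 3 selected peaks of 700 bp lay nearest KLHL32, DNAH14 and MPC2, with clone 4 folds of 12.6, 10.7 and 8.51. The 3 peaks of 699 bp that just missed it lay nearest NBEAL2, OSBPL3 and HNRNPH1, with folds of 14.7, 8.78 and 8.33.

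Clone 5 width was not part of the rule and served as a check of whether a wide peak was wide again. Where several clone 5 peaks overlapped a region, the clone 5 width is that of the widest. The clone 5 fold and summit are those of the strongest, which can be another peak. A longer interval has more clone 5 peaks to draw on, and a clone 5 peak under several regions was counted for each. Of the 1100 regions, 506 had a clone 5 peak of 700 bp or more, a share of 46.0% (95% Wilson interval 43.1% to 49.0%). The same share was 4.89% among narrow PLAG1-S-only peaks, 41.1 percentage points lower (95% Newcombe interval 38.2 to 44.1). It was 67.2% among wide co-bound peaks, where the difference was -21.2 points (-24.9 to -17.4). Median clone 4 fold was 7.82 in the regions, 5.69 in narrow PLAG1-S-only and 16.3 in wide co-bound peaks. The part of enrichment and of interval length in these differences was not tested. Peaks are not replicates of a condition, so these intervals and all that follow cover counting error only and no p-value is given. The median clone 5 width was 670 bp, with quartiles of 463 and 867 bp. More than 1 clone 5 peak lay under 27.0% of the regions, against 2.38% of narrow PLAG1-S-only peaks and 19.0% of wide co-bound peaks. A longer interval can overlap more clone 5 peaks, so the value of the narrow peaks is a description and no comparison. The share of 700 bp or more in clone 5 was 31.8% (27.5% to 36.4%) for the 415 peaks of 700 to 799 bp. It was 91.2% (77.0% to 97.0%) for the 34 peaks of 1500 bp or more. The clone 5 limit stayed at 700 bp, which wider peaks pass more easily, so this rise is a description. With the same limit in both clones, the share was 49.4% at 600 bp, 46.0% at 700 bp, 42.0% at 800 bp and 34.5% at 1000 bp. The number of clone 5 peaks also changed with clone 4 width, since 16.1% of the narrower and 52.9% of the wider of these classes were split into more than 1 peak in clone 5.

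The position of the summit was less well shared between the clones than in the other groups. The summits of the clones lay a median of 50 bp apart, and 66.6% of the regions had them within 100 bp, against 79.4% of narrow PLAG1-S-only peaks and 85.7% of wide co-bound peaks. The differences were -12.8 points (-15.7 to -9.95) and -19.0 points (-22.3 to -15.7). A longer interval leaves room for summits further apart, so the difference to narrow peaks is a description. Wide co-bound peaks had a higher median clone 4 fold, 16.3 against 7.82, and the part of enrichment in their difference was not tested. The median ratio of clone 5 to clone 4 fold was 0.92, with quartiles of 0.77 and 1.09.

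The distance to USF2 is described here, since the rule removed peaks with USF2 within 100 bp. The nearest USF2 peak of either clone lay a median of 29731 bp away, and 105 regions, or 9.55%, had one within 1 kb. Narrow PLAG1-S-only peaks, chosen by the same USF2 limit, were alike, with a median of 34515 bp and 8.19% within 1 kb. Just outside the limit of the rule, 15 wide peaks had a gap to USF2 of over 100 and up to 200 bp, and 9 of the wide co-bound peaks were set apart from their USF2 peak by 1 to 100 bp. The USF2 lists differed in length, with 9338 peaks in clone 4 and 4369 in clone 5, so a region without a listed USF2 peak is one below the threshold of both lists and not one shown to lack USF2.

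Wide PLAG1-S-only peaks lay mainly at promoters. The summit was within 1 kb of a gene start for 793 of 1100 regions, 72.1% (69.4% to 74.7%), against 46.8% of all reproducible PLAG1-S peaks. Starts are those of the RefSeq promoter table. For coding and lncRNA genes that the table does not list, chromosome 8 included, the nearer end of the gene was used, which counts some 3′ ends, and 136 of the 793 regions were placed in that way. For narrow PLAG1-S-only peaks the share was 41.6%, a difference of 30.5 points (27.6 to 33.2). For wide co-bound peaks it was 76.4%, a difference of -4.35 points (-7.75 to -0.99). The last difference was not kept when peaks of like enrichment were compared: with clone 4 folds of 5 to 15 in both groups it was 0.35 points (-4.09 to 4.87), whereas the difference to narrow peaks was then 37.1 points (33.9 to 40.0).

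A further 189 regions lay 1 to 10 kb from a start, and 118 (10.7%) lay over 10 kb away, 71 inside a gene and 47 between genes. Distal positions were rarer than among narrow PLAG1-S-only peaks, of which 30.9% lay over 10 kb away, a difference of -20.2 points (-22 to -18.1). To wide co-bound peaks, 10.4% of which were distal, the difference was 0.29 points (-2.05 to 2.72). The 118 distal regions had a median clone 4 fold of 8.60 against 7.46 at the 793 promoter regions, and 36.4% against 47.2% were wide in clone 5.

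Around the start itself, the summits of the wide PLAG1-S-only peaks lay on both sides. Of the 657 regions within 1 kb whose nearest position was a listed start, 53.0% had the summit downstream, and the median summit was 22 bp downstream. Narrow PLAG1-S-only summits lay downstream in 58.9%, a difference of -5.92 points (-9.98 to -1.89). Wide co-bound summits lay downstream in 37.3%, a difference of 15.6 points (10.7 to 20.4), with the median 32 bp upstream. Within 100 bp of a start lay 23.6% of the wide PLAG1-S-only summits and 34.8% of the wide co-bound summits, a difference of -11.2 points (-14.6 to -7.70). Off chromosome 8, 12.9% of the regions contained listed starts on both strands, against 14.5% of wide co-bound peaks, a difference of -1.56 points (-4.20 to 1.17). The 1.57% of narrow peaks with starts on both strands is given for completeness, since a shorter interval holds fewer starts.

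The E-box CACGTG was rarer at wide PLAG1-S-only promoters than at wide co-bound ones. USF2 binds this E-box and the rule split these groups on USF2 peaks, so their difference is a description and no independent result. Promoter windows of 300 bases, 250 before and 50 after a RefSeq start, were searched on both strands when they lay wholly inside a peak, and 638 windows of 569 genes did so for the wide PLAG1-S-only peaks. CACGTG was found in 50 of them, 7.84% (5.99% to 10.2%), beside 7.27% of all 34961 RefSeq windows. The motif holds a CpG, and the windows in wide PLAG1-S-only peaks had a median of 35 CpG against 14 in all windows. The part of base composition in the E-box share was not tested. In wide co-bound peaks 49.3% of 1111 windows held CACGTG, and the difference was -41.5 points (-45.0 to -37.7). With clone 4 folds of 5 to 15 in both groups, the difference was smaller, -14.5 points (-19.6 to -9.65). In narrow PLAG1-S-only peaks 12.4% of 679 windows held the E-box, a difference of -4.53 points (-7.79 to -1.27). With only the clone 5 lists, the shorter USF2 list among them, the share in wide PLAG1-S-only peaks was 12.4%.

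The 50 windows with an E-box belonged to 45 regions, which had a median clone 4 fold of 9.36. Of these 45, 2 had a USF2 peak within 1 kb, beside 9.55% of all 1100 regions, after the rule had removed peaks with USF2 within 100 bp. Among them, and picked out after the values were seen, were the region at SOHLH1, a germ cell transcription factor gene, with folds of 19.5 in clone 4 and 15 in clone 5 and the nearest USF2 peak 111206 bp away, and that at RBM15, an RNA-binding protein gene, with folds of 12.7 and 6.90 and a USF2 peak 157 bp from its edge.

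The G-rich element was common in all 3 groups, and the intervals of the differences between them included 0. GAGGC or GGGGC followed after 6 to 8 bases by GGG was present in 63.5% (59.7% to 67.1%) of the windows in wide PLAG1-S-only peaks, against 32.3% of all RefSeq windows. Narrow PLAG1-S-only peaks had it in 62.6%, a difference of 0.89 points (-4.32 to 6.08), and wide co-bound peaks in 59.0%, a difference of 4.43 points (-0.32 to 9.10). With a width minimum of 1000 bp, the difference to narrower peaks was turned to -9.32 points (-16.5 to -2.27). The windows inside the peaks were rich in G and C, with a median G plus C of 73.3% and 35 CpG per window in wide PLAG1-S-only peaks, 71.7% and 33 in narrow peaks, and 71.7% and 34 in wide co-bound peaks, against 58.7% and 14 in all windows. The part of this base composition in the share with the G-rich element was not tested.

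Other common promoter elements were searched as a comparison. GGGCGG, the GC box bound by SP1, was present in 86.2% of the windows against 83.1% in narrow and 86.6% in wide co-bound peaks and 45.0% of all windows. It overlaps the G-rich element in part. CCAAT, bound by NF-Y, was present in 33.4% of the windows, against 34.6% of all windows. For CCAAT the difference to narrow peaks was 5.40 points (0.42 to 10.4) and that to wide co-bound peaks -1.09 points (-5.64 to 3.55).

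**Figure D1:**
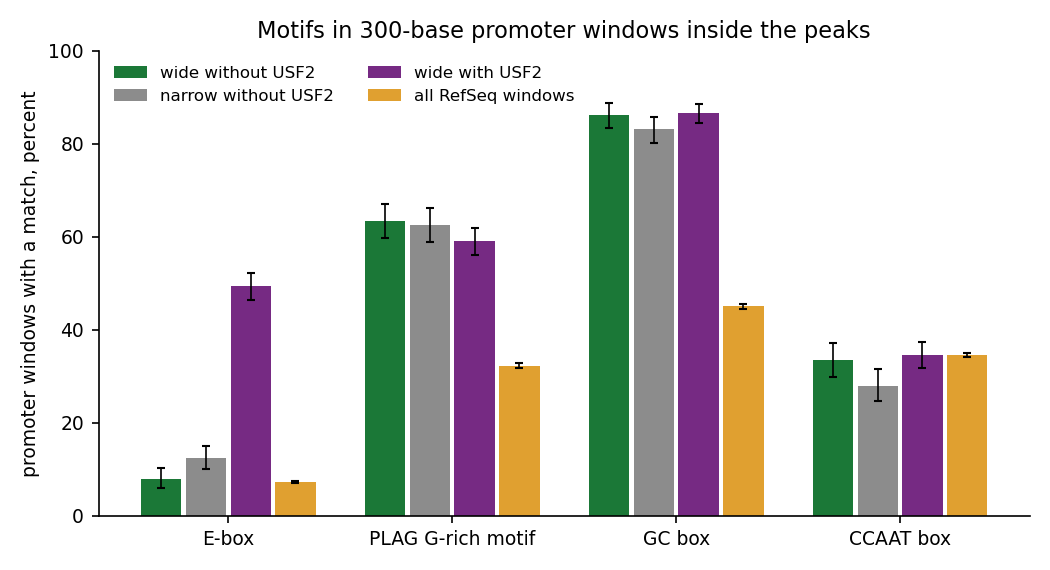
Share of promoter windows with a match to each motif, in percent, for windows inside wide PLAG1-S-only (green), narrow PLAG1-S-only (grey) and wide co-bound peaks (purple) and for all RefSeq windows (orange), with 95% Wilson intervals. The E-box share is 49.3% in wide co-bound peaks and 7.84% in wide PLAG1-S-only peaks, groups that the rule split on USF2 peaks. The G-rich element is present in 59.0% to 63.5% of the windows inside peaks of each group.

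By clone 4 fold, the strongest of the regions outside chromosome 8 was at FIZ1, which encodes a zinc finger protein that interacts with the receptor tyrosine kinase FLT3. This region, at chr19:55599147-55599901, had a fold of 41.2 in clone 4 and 34.9 in clone 5, with 195 and 153 fragments at the summit, and ranked 71 by fold in the whole clone 4 list. It was wide only in clone 4, with 755 bp against 570 bp in clone 5. The summit lay 8 bp downstream of the FIZ1 start.

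At PRXL2B, which encodes a peroxiredoxin-like enzyme of prostaglandin synthesis, the region covered 1645 bp in clone 4 and 1537 bp in clone 5. The fold was 40.7 in clone 4 and 51.5 in clone 5, where the peak ranked 7, the highest rank reached by any of the 1100 regions. The summit lay 1181 bp upstream of the start, so the promoter sequence given for it lies at the edge of the bound region and not under its summit.

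ADPGK, the gene of the ADP-dependent glucokinase, had a region of 799 bp in clone 4 and 805 bp in clone 5. Its folds were 38.4 and 36.5, and the summits of the clones were 3 bp apart, 47 bp upstream of the start. YES1, a SRC family kinase gene, had folds of 34.4 and 29.1 over 848 and 998 bp, with the summit 194 bp upstream. DNAJB2, which encodes an HSP40 co-chaperone, had folds of 31.0 and 37.8, and its region was 736 bp wide in clone 4 and 572 bp in clone 5. VEZF1, a zinc finger factor gene of endothelial cells, had folds of 30.4 and 25 over 1073 and 957 bp, and its summit lay 390 bp downstream of the start.

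The other 4 of the 10 strongest regions did not contain the start of their nearest coding gene. The region upstream of PHKA2, which encodes a regulatory subunit of phosphorylase kinase, had folds of 37.7 and 31.3 and its summit was 899 bp upstream. A region inside NACA, the gene of a ribosome-associated chaperone subunit, spanned 1774 bp in clone 4 and 2483 bp in clone 5 with folds of 34.1 and 28.7, and lay 7570 bp downstream of the start. A region 48600 bp from the nearer end of DLK1, an imprinted gene of the Notch ligand family, had folds of 29.5 and 26.7 and was 822 bp wide in clone 4 against 450 bp in clone 5. The region that lay 58628 bp from the start of ZDHHC7, a palmitoyltransferase gene, at chr16:84952537-84953720, was between annotated genes and had folds of 37.2 and 32.9 over 1184 and 1278 bp.

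The ZDHHC7 region was also the strongest of those over 10 kb from any start. The next was at chr19:960805-961659 inside ARID3A, the gene of an AT-rich interaction domain factor, 14596 bp from the nearer gene end, with folds of 29.4 and 24.8. A region inside NFATC1, the gene of a calcium-regulated transcription factor, had folds of 27.5 and 23.4 over 1351 and 1375 bp. A region inside BRSK2, a serine/threonine kinase gene, 26719 bp downstream of the start, had folds of 26.1 and 29.4. The last of the 5 lay inside the uncharacterised locus LOC124900586 on chromosome 16, with folds of 23.8 and 16.9. The lowest fold of the 5 in either clone, 16.9, was still over the medians of 7.82 and 7.10.

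The widest regions were not the strongest. The widest of all, with 2552 bp in clone 4, covered the start of EGFL7, which encodes a protein secreted by endothelial cells, and had folds of 16.0 and 13.8. In clone 5 the wider of 2 peaks there had 1309 bp, and the fold of 13.8 was that of the other peak. A USF2 peak lay 590 bp from the edge of the clone 4 region. TMEM250 had 2222 bp and folds of 13.1 and 9.43, but was split into 4 peaks in clone 5. HMGA1, the gene of an architectural chromatin protein, had 2078 bp in clone 4 and 1386 bp in clone 5 with folds of 8.20 and 6.19, and a USF2 peak 684 bp away. The region 367 bp from an end of SLC7A4, a gene of the amino acid transporter family, had 2056 bp and folds of 4.36 and 4.58. PIM1, a serine/threonine kinase gene, had 2040 bp in clone 4 and 1552 bp in clone 5 with folds of 6.04 and 5.75, and its summit was 910 bp downstream of the start, 6 bp from that of clone 5.

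Some regions spanned the starts of neighbouring coding genes. Of the 1062 regions off chromosome 8, 51 (4.80%) contained the starts of 2 or more coding genes. The strongest of these lay between CUL4A, a cullin gene, and PCID2, an mRNA export gene, and was 1951 bp wide with folds of 14.0 and 11.9. In clone 5 it was divided into 3 peaks. The others were at TADA2A, a histone acetyltransferase adaptor gene, with ACACA, the gene of an acetyl-CoA carboxylase (folds 13.9 and 17.9), and at PGAP2, a GPI anchor remodelling gene, with NUP98, a nuclear pore gene (13.9 and 9.57). The region shared by KLHL32 and NDUFAF4, the latter a gene of respiratory complex I assembly, had folds of 12.6 and 7.10, and that at TSC22D4 shared its start with a readthrough transcript (12.5 and 8.07).

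A total of 849 protein-coding genes had a wide PLAG1-S-only summit within 1 kb, 4.25% of the 19974 coding genes placed. They were reached by 752 regions. Of these genes, 17 also had a wide co-bound peak and 188 also had a narrow PLAG1-S-only peak within 1 kb. Any reproducible PLAG1-S peak was present within 1 kb of 7978 coding genes, 39.9%, and 10.6% of these had a wide PLAG1-S-only peak. In 8 lists of genes from pathways of blood cells and of growth, the shares are set beside these values and carry no test.

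Among 55 genes of chromatin regulators, 10 had a wide PLAG1-S-only peak, 18.2% (10.2% to 30.3%) beside the 4.25% of all coding genes. Any PLAG1-S peak was present at 44 of the 55, so the wide PLAG1-S-only peaks were at 22.7% of the bound genes against 10.6% over all genes. HDAC1, a histone deacetylase gene, had the strongest, with folds of 28.6 in clone 4 and 24.8 in clone 5, widths of 810 and 699 bp and the summit 137 bp upstream of the start. KMT2C, a histone methyltransferase gene, had folds of 12.9 and 13.2 over 861 and 787 bp. SMARCD2, which encodes a SWI/SNF subunit, had folds of 11.9 and 10.3, with 930 bp in clone 4 and 557 bp in clone 5. KMT2A, the gene of another histone methyltransferase that is rearranged in leukemia, had folds of 10.7 and 12.2 over 764 and 716 bp. The clone 5 fold was below the clone 4 fold at HDAC1 and SMARCD2 and above it at KMT2C and KMT2A. The other 6 of the list had clone 4 folds between 5.21 and 9.65.

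Among 48 genes of RAS, MAPK and JAK-STAT signalling, 5 had such a peak, 10.4% (4.53% to 22.2%). Any PLAG1-S peak was present at 34 of the 48, and the wide PLAG1-S-only peaks were at 14.7% of these bound genes against 10.6% over all genes. CISH, a feedback inhibitor of cytokine receptor signalling, had folds of 12.1 and 10.1 with 875 bp in clone 4 and 616 bp in clone 5. Its region also held the start of MAPKAPK3, which was 64 bp from the summit against 167 bp for the CISH start. SPRED1, an inhibitor of RAS signalling, had folds of 10.0 and 7.88, and JAK1, a receptor-associated tyrosine kinase, 8.27 and 7.10. PTPN11, the gene of the phosphatase SHP2, was placed by its end and had folds of 6.45 and 5.10 over 802 and 923 bp.

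The immediate early genes and the cell cycle genes had 4 of 38 each, 10.5% (4.17% to 24.1%). MAFK, a small MAF factor gene that the list holds, had the strongest, with folds of 11.1 and 7.13 over 1395 and 1259 bp, 608 bp from its end. PIM1 is described above, and FOSL2, an AP-1 subunit gene, had folds of 4.30 and 3.46 with 721 bp in clone 4 and 179 bp in clone 5. IER3 was counted by a gene end 651 bp from the summit, with folds of 4.64 and 4.71. That summit lay inside FLOT1 and the region contained the FLOT1 start, so it is not shown to be at the IER3 promoter. Of the cell cycle genes, RBL1, a retinoblastoma family gene, had folds of 7.78 and 5.91, MDM4, a p53 inhibitor gene, 7.07 and 5.76, PKMYT1, a CDK1-inhibiting kinase gene, 6.35 and 7.25, and CDKN1C, a CDK inhibitor gene, 5.99 and 3.95. PKMYT1 and CDKN1C were placed by a gene end. All 4 cell cycle regions were below 700 bp in clone 5.

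Of 40 blood transcription factor genes, 3 had a wide PLAG1-S-only peak, 7.50% (2.58% to 19.9%). ZBTB7A, which encodes a zinc finger repressor of erythroid and lymphoid development, had folds of 11.0 and 11.4 over 1628 and 1046 bp, in 2 peaks in clone 5. HHEX, a homeobox gene of early blood development, had 7.11 and 6.14 over 888 and 922 bp. GATA2, a factor of stem and progenitor cells, had 6.35 and 5.04 over 719 and 528 bp, with the summits of the clones 299 bp apart. That clone 4 summit lay 529 bp from a listed GATA2 start, and the region held the start of GATA2-AS1 and no listed GATA2 start. None of 105 genes of developmental transcription factor families had one, a share of 0% (0% to 3.53%), although 34 of them had a PLAG1-S peak of some kind.

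Of 20 genes of the PLAG family and reported PLAG1 targets, 2 had such a peak, CDKN1C and GRB10, an imprinted gene of a growth factor receptor adaptor, with folds of 4.91 and 5.60 over 878 and 905 bp. Of 74 cytosolic ribosomal protein genes, 6 did, 8.11% (3.77% to 16.6%), led by RPL19 with folds of 9.98 and 7.10 and RPLP2 with 7.71 and 6.28. RPLP0 had 7.37 and 6.45, and RPL18, whose start is shared with SPHK2, 6.61 and 3.41, and all 4 were narrower than 700 bp in clone 5. The RPLP2 summit lay inside PIDD1, 528 bp upstream of the RPLP2 start, and the region held no listed coding start. Of the genes with any PLAG1-S peak, the wide PLAG1-S-only peaks were at 12.5% of the blood transcription factors, 13.0% of the ribosomal protein genes, 13.3% of the immediate early genes, 16.0% of the cell cycle genes and 18.2% of the PLAG family and target genes, beside 10.6% over all genes.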

How the data were processed

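ChIP-seq was performed on 2 K562 clones (4 and 5), which are the replicates of each factor. The authors called peaks in each library with MACS2 against merged inputs and deposited 4 lists on hg38 (GRCh38). The submitters' processing notes also name FastQC, cutadapt, HISAT2 2.0.4, SAMtools, bedtools and HOMER, and the MACS2 version is not given in the sources used here. Deposited by the authors were the fold (the ratio of summit fragments to local background), the −log10 p and −log10 q, and a score that is 10 times the −log10 q. Fewer peaks are called in a library of lower enrichment, and neighbouring summits can be joined into 1 interval, so width depends on both. Fold and −log10 values were used to rank, describe and filter peaks. Fragments at a summit were recovered from fold and −log10 p, accepted within 0.001 of the deposited value. For this, 1 was added to both fragments and background in the ratio, a form inferred from the deposited values. The recovered fragments and background stand in for the depth of a library.

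Gene starts and promoters came from RefSeq (GRCh38.p14), with 15812 coding genes at a listed start and 4162 at their ends. Shares carry Wilson and differences Newcombe 95% intervals (Python 3.11.15, numpy 2.4.6, pandas 2.3.3, scipy 1.17.1, matplotlib 3.10.9), and the procedures were checked on simulated data. Per the labels, a clone number marks 1 cell line, so the clone was also used as a replicate block. The members and gene lists were chosen with earlier results of these data known. Named genes are the nearest coding genes of the 10 strongest, 5 widest, 5 strongest distal and 5 strongest members with 2 coding starts, and up to 4 genes per list, all off chromosome 8, whose sequence is not used here. Printed promoters were limited to those outside coding gene spans after the data were seen. Alternatives varied the width, the USF2 and start distances, the overlap, the q-value, the clone and the motifs.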

Additional observations from a re-analysis of the deposited data

Results flagged for a closer look

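Outside chromosomes 1 to 22 and X, 7 wide PLAG1-S peaks met the same rule, in sequences that the comparisons do not use. Of these, 3 lay on the mitochondrial genome, with folds of 1.72 to 1.74 in clone 4 and 1.86 to 1.87 in clone 5, and the other 4 lay on unplaced contigs, with folds of 1.96 to 16.6 in clone 4 and 1.89 to 6.66 in clone 5. The mitochondrial peaks were up to 3586 bp wide.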

How the results depend on the processing

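Of 144 recomputed values, 111 kept their direction and call. These include all 17 for the share near a start against narrow peaks and all 15 for the E-box share against wide co-bound peaks. The difference in the share near a start to wide co-bound peaks no longer excluded 0 at width minimums of 800 bp (-2.60 points) and 1000 bp (-1.93), a USF2 distance of 1 kb (-2.20), clone 5 coordinates (-3.64), 3 kb to a start (-2.20) and listed starts alone (-3.65, added after the data were seen), and was 0.35 with folds of 5 to 15 (also added later). The G-rich difference to narrow peaks was -9.32 points at 1000 bp. At 600, 800 and 1000 bp the regions numbered 1820, 685 and 261, with 1327, 545 and 215 coding genes, and 49.4%, 42.0% and 34.5% were as wide in clone 5, against 58.7% with 50% reciprocal overlap. The share near a start was 75.1% at 1000 bp, 61.2% within 500 bp, 80.0% within 3 kb, 75.6% for whole intervals, 68.4% for coding genes and 63.3% with listed starts alone. The E-box share was 56.0% for any CANNTG, and 8.43% to 12.4% when either clone was left out. The G-rich share was 55.3% at 1000 bp, 67.4% with reciprocal overlap, 70.3% in clone 5 coordinates, 99.8% for the core alone, 59.4% with only the start inside the peak and 63.3% to 68.3% when either clone was left out. With the clone as a replicate block, in which the paired libraries of each clone were used and averaged, the E-box share was 10.4%, and no call of a difference changed. Summits of few fragments limit how far a width can be trusted. The causes of these changes were not tested.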
